A study of Mus musculus with 16 samples.

Results

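The 8 genes described here encode ligands and receptors of neuregulin and ErbB signalling: the ligands Nrg1, Nrg2, Nrg4 and Hbegf and the receptors Erbb2, Erbb3, Erbb4 and Egfr. They were chosen by name, through the RefSeq accession that the array files give for each probe, and make up 8 of 21154 named genes, read by 12 of 55681 probes. Their RNA was measured with one-colour Agilent arrays in the ventricles of 16 females, with 1 mouse per array and 4 mice per group. The 4 groups were 2-week lactating Npr1-/- mice (lactating KO), nulliparous Npr1-/- mice (nulliparous KO), 2-week lactating Npr1+/+ mice (lactating WT) and nulliparous Npr1+/+ mice (nulliparous WT). Npr1 encodes the guanylyl cyclase receptor for atrial and B-type natriuretic peptides. Strain and age are not given in the sources used here. The comparisons ask how the ventricle differs between lactating and nulliparous mice of each genotype, and whether loss of Npr1 alters that difference.

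Neuregulins are growth factors that carry an EGF-like domain and bind ErbB3 or ErbB4, which then pair with ErbB2, a receptor with no ligand of its own. In the heart, neuregulin-1 is made mainly by endothelial and endocardial cells and acts on ErbB4 and ErbB2 of cardiomyocytes, a pathway needed for trabeculation in the embryo and for maintenance of the adult ventricle. HB-EGF is shed from the cell surface and binds EGFR and ErbB4, and EGFR in turn binds several ligands of the EGF group. Neuregulin-2 is best known from the nervous system, and neuregulin-4 is a ligand of ErbB4 secreted by adipose tissue in mice.

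Promoter sequences are shown for Nrg4 and Erbb2, the ligand and the receptor that were above background throughout and which passed the test for lactation in wild-type mice. Each is the 250 bases before the RefSeq start site, 5′ to 3′ on the gene's strand, and capitals mark the matches to the motifs listed after them. The Nrg4 stretch is chr9:55283626-55283875 on the minus strand and the Erbb2 stretch is chr11:98412234-98412483 on the plus strand, both in GRCm38.p6.
Nrg4: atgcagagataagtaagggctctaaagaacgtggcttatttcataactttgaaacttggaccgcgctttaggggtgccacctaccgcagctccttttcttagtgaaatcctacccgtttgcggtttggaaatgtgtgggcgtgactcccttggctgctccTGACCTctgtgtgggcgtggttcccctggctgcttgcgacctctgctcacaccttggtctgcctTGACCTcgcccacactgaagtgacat
Erbb2: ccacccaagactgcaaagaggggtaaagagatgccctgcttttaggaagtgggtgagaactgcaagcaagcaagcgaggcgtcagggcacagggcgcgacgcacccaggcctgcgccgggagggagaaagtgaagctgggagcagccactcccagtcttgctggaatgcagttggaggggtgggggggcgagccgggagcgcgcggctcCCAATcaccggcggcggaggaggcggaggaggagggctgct
RefSeq windows of 300 bases, which also hold the 50 bases from the start site on, were read for Nrg4, Erbb2, Erbb4 and Egfr. The Nrg4 window was 51% G and C and the Erbb2 window 66%, against a median of 52.7% over 32851 windows. Both strands were searched for 5 motifs, which do not overlap within these windows. The nuclear receptor half-site AGGTCA occurred at 2 places in Nrg4, at -90 and -26 from the start site, where the printed strand reads TGACCT, and 16.3% of all windows hold it. CCAAT occurred once in Erbb2, at -41 (37.4% of all windows), and the GC box GGGCGG once in Egfr, at -9 (35.7%). TATAAA (13.6% of all windows) and TTCNNNGAA (8.3%) matched none of the 4 windows, and Erbb4 held no match to any of the 5 motifs. These are matches of letters, not measured binding sites.

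Values are log2 signals from which the 75th percentile of that array was subtracted, so 0 is that percentile, and levels of different probes cannot be set against each other. Differences between groups are log2 differences ± standard error (SE) from one limma fit over 14060 genes, with a call at a p under 0.05 after Benjamini-Hochberg adjustment. The arrays lay on 2 slides, each with replicates 1 and 2 or replicates 3 and 4 of every group, and each group kept its position on both slides, so position and group cannot be told apart. That percentile was 278.2 to 347.4 on lactating arrays and 164.7 to 220.7 on nulliparous arrays other than nulliparous KO replicate 4, which had 283.6. That array stood apart: on the first principal component (53.7% of the variance) it lay at 14.53, against 27.64 to 41.93 for lactating arrays and -46.9 to -39.33 for the other nulliparous arrays. Lactation results in KO mice are therefore given with and without it for Nrg1, Nrg2, Nrg4 and Erbb2. Other values that involve nulliparous KO mice include it unless stated. The probe for Npr1 was well above background on 9 of 16 arrays and failed the filter. Its level was -4.27 to -3.63 in lactating KO and -4.15 to -3.71 in nulliparous KO, against -4.68 to -3.53 in lactating WT and -4.47 to -3.62 in nulliparous WT, and where the probe lies relative to the deleted part is not given in the sources used here, so genotypes rest on the labels. Cardiac tissue was borne out by 8 of 8 cardiomyocyte markers and 9 of 9 endothelial markers, well above background on all arrays of every group. Atrial markers were read too and are given below, and whether the ventricle samples held atrial tissue was not tested.

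A gene was tested if some group had its probe well above background in all 4 of its mice, and 6 of the 8 genes passed, all but Erbb3 and Erbb4. In lactating against nulliparous WT ventricles, Nrg4 rose and Nrg2 and Erbb2 fell, 3 of 6 genes, where limma called 50.3% of all genes tested (31.8% higher and 18.5% lower). In lactating against nulliparous KO ventricles, Nrg1 rose and Nrg2 and Erbb2 fell, again 3 of 6, where 44.1% of all genes were called (25.5% higher and 18.6% lower). Nrg2 passed only through its nulliparous groups, with 0 of 4 lactating WT arrays above background, so its fall was built into its being tested. With the filter on all 16 arrays, which leaves Nrg2 out, limma called 2 genes in each genotype, Nrg1 and Erbb2 in KO and Nrg4 and Erbb2 in WT. Of 9 tested probes 5 were called in each genotype, against 44.2% of all probes in KO and 48.3% in WT. These shares are no result about the neuregulin and ErbB genes. Their median log2 difference was 0.27 in WT and 0.00 in KO mice, against 0.10 and 0.06 over all genes. Between genotypes, 0 of the 6 genes were called in either state.

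**Figure D1:**
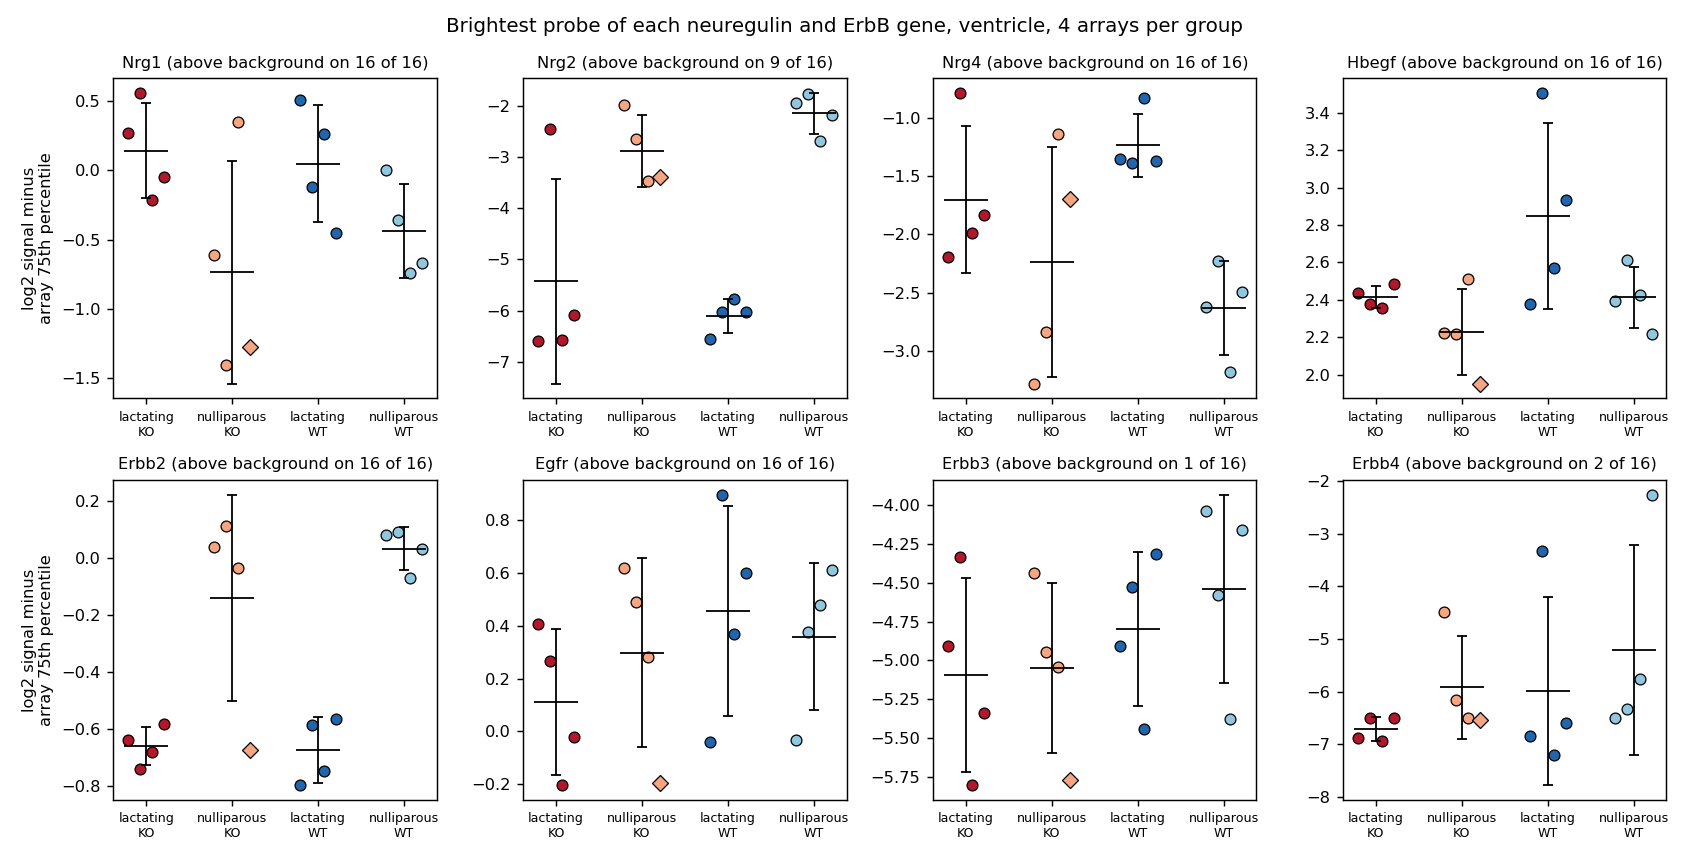
Level of the brightest probe of each of the 8 genes on every array (y axis, log2 signal relative to the 75th percentile of the array), by group. Points are arrays, the diamond is nulliparous KO replicate 4, and bars are the mean ± SD of 4 arrays. Erbb2 lies between -0.80 and -0.56 on all lactating arrays of both genotypes, and Nrg2 lies below -5.7 on 7 of the 8 lactating arrays.

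Among the ligands, Nrg1, the main cardiac neuregulin (chromosome 8, probe A_55_P1985433), was well above background on all 16 arrays. Its level was 0.27, 0.56, -0.21 and -0.05 in lactating KO ventricles, against -0.61, -1.40, 0.35 and -1.28 in nulliparous KO ventricles. It was 0.51, -0.12, 0.26 and -0.45 in lactating WT ventricles, against 0.00, -0.36, -0.74 and -0.67 in nulliparous WT ventricles. Groups overlapped in both genotypes, and nulliparous KO ventricles were the most spread. The group means were 0.14 ± 0.34 in lactating KO and -0.74 ± 0.80 in nulliparous KO, and 0.05 ± 0.42 in lactating WT and -0.44 ± 0.34 in nulliparous WT (SD, n = 4 each). Nrg1 rose by 0.87 ± 0.33 (1.83-fold, limma's adjusted p = 0.0459) with lactation in KO mice, a call close to the threshold. Without nulliparous KO replicate 4 the difference was 0.69 ± 0.35 (limma's adjusted p = 0.113), and 14 of 30 alternative settings ended the call. Of these, 10 left out a single array (nulliparous WT 2 or 4, lactating WT 2 or 3, nulliparous KO 1, 2 or 4, or lactating KO 1, 2 or 4), with differences of 0.65 to 0.94 (limma's adjusted p of 0.053 to 0.148). Within slide 1 the KO difference was 1.42 and within slide 2 it was 0.33. In WT mice the difference was 0.49 ± 0.33 and was not called (limma's adjusted p = 0.239).

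Nrg2, the neuregulin best known from neurons (chromosome 18), was read by a pair of probes, both annotated to the same transcript, and the brighter one (A_55_P2094034) was well above background on all 8 nulliparous arrays and on 1 of 8 lactating arrays. Its level was -6.61, -2.45, -6.57 and -6.09 in lactating KO ventricles, against -1.97, -2.64, -3.47 and -3.39 in nulliparous KO ventricles. In WT mice it was -6.57, -6.03, -5.78 and -6.04 in lactating ventricles, against -1.94, -1.76, -2.68 and -2.16 in nulliparous ventricles. All lactating WT arrays lay below all nulliparous WT arrays, whereas lactating KO replicate 2 lay among the nulliparous arrays and separated from its own group. In these ventricles, less Nrg2 RNA per cell and fewer cells that make it cannot be told apart.

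With no lactating WT array above background, the WT difference is a bound: Nrg2 was at least 5.29-fold lower in lactating WT than in nulliparous WT ventricles. The bound takes on each lactating array the higher of the probe's own signal and the lowest signal well above background. The fitted WT difference, which includes signal below background, was called (limma's adjusted p = 0.000513). Here and below, an adjusted p beside a bound is that of the fitted difference, and the bound itself was not tested. In KO mice Nrg2 fell (limma's adjusted p = 0.00978, and 0.00961 without nulliparous KO replicate 4). Only 1 of 4 lactating KO arrays, replicate 2, was above background, so the fitted difference of -2.56 ± 0.70 is not a measured size. Without that array the KO difference is a bound too, with Nrg2 at least 3.3-fold lower in lactating KO ventricles (limma's adjusted p = 0.00071). The KO call ended when only the KO groups were fitted (limma's adjusted p = 0.0561). It also ended within slide 1 (limma's adjusted p = 0.179) and within slide 2 (limma's adjusted p = 0.0537). Within slide 1 Nrg2 was at least 5.91-fold lower in lactating WT ventricles, and within slide 2 at least 2.19-fold lower in lactating KO and 4.74-fold lower in lactating WT ventricles. With normexp the fitted differences were -0.74 in KO and -1.04 in WT, both still called. The probe passed the filter through its nulliparous groups, so a lower lactating level was built into its being tested. The dimmer Nrg2 probe (A_55_P1991821) was above background on 3 of 16 arrays and was not tested. It read -6.98, -6.57, -3.02 and -4.28 in lactating KO and -3.82, -5.37, -4.23 and -5.85 in nulliparous KO ventricles, which overlap. In WT mice it read -6.84 to -6.41 in lactating and -4.99 to -4.02 in nulliparous ventricles, with no array above background in either.

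Nrg4, the adipose-derived ligand of ErbB4 (chromosome 9), rose with lactation in WT ventricles. Its brighter probe (A_55_P2185900), above background on all 16 arrays, read -2.20, -0.79, -1.99 and -1.84 in lactating KO and -3.28, -2.83, -1.14 and -1.70 in nulliparous KO ventricles. It read -1.35, -1.39, -0.84 and -1.38 in lactating WT and -2.62, -2.23, -3.18 and -2.49 in nulliparous WT ventricles. Every lactating WT array lay above every nulliparous WT array, but the KO groups overlapped, with nulliparous KO replicates 3 and 4 as high as the lactating arrays. The group means ran in the order lactating WT (-1.24), lactating KO (-1.70), nulliparous KO (-2.24) and nulliparous WT (-2.63), and no neighbours in that order differed by limma. The rise in WT was 1.39 ± 0.41 (2.63-fold, limma's adjusted p = 0.0115), and 1.06 within slide 1 and 1.73 within slide 2. In KO mice the difference was 0.54 ± 0.41 (95% interval -0.34 to 1.41, limma's adjusted p = 0.304), and 0.71 ± 0.44 without nulliparous KO replicate 4. The KO difference had opposite signs by slide, 1.56 within slide 1, where it was called (limma's adjusted p = 0.0305), and -0.49 within slide 2. With array weights it was 1.05 and called (limma's adjusted p = 0.0131), and without lactating KO replicate 2 it was 0.23 and not called (limma's adjusted p = 0.676). Normexp lowered the WT difference to 0.60 (limma's adjusted p = 0.0248).

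The second Nrg4 probe (A_55_P2185905), annotated to the same transcript, was above background on 4 of 4 lactating KO and 1 of 4 nulliparous KO arrays, and on 4 of 4 lactating WT and 0 of 4 nulliparous WT arrays. It read -3.67, -1.97, -3.36 and -3.34 in lactating KO and -6.26, -5.93, -4.14 and -3.12 in nulliparous KO ventricles. In WT mice it read -2.75, -2.95, -2.36 and -3.18 in lactating and -6.00, -6.07, -5.65 and -5.80 in nulliparous ventricles. The WT groups were far apart, and in the KO groups nulliparous replicate 4 alone overlapped the lactating arrays. Nrg4 by this probe was at least 2.14-fold higher in lactating WT than in nulliparous WT ventricles. Its fitted difference was called (limma's adjusted p = 0.000609 in the fit over 28947 probes). In KO it was called higher (limma's adjusted p = 0.0185), but with 1 of 4 nulliparous KO arrays above background, replicate 4, the fitted difference of 1.78 ± 0.56 is not a measured size. Without that array it is a bound, at least 2.02-fold higher in lactating KO than in nulliparous KO ventricles (limma's adjusted p = 0.000796), and within slide 2 the KO difference was 0.28. The KO call ended without nulliparous KO replicate 1, nulliparous KO replicate 2 or lactating KO replicate 2, with limma's adjusted p of 0.0616 to 0.0658. Normexp left 0.36 in WT (limma's adjusted p = 0.0386) and 0.04 in KO (limma's adjusted p = 0.798), ending the KO call. The probe passed the filter through its lactating groups, so a higher lactating level was built into its being tested.

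Hbegf (chromosome 18, probe A_51_P181565), which encodes HB-EGF, was above background on all 16 arrays and read 2.44, 2.38, 2.36 and 2.49 in lactating KO and 2.23, 2.22, 2.51 and 1.95 in nulliparous KO ventricles. It read 2.38, 3.51, 2.57 and 2.93 in lactating WT and 2.40, 2.62, 2.43 and 2.22 in nulliparous WT ventricles. The groups overlapped in both genotypes, and lactating WT replicate 2 was the highest of the 16. The WT difference was 0.43 ± 0.19 (95% interval 0.03 to 0.84, limma's adjusted p = 0.0718), and 5 of 30 alternative settings called it, among them leaving out lactating WT replicate 1 (0.59, limma's adjusted p = 0.0183) or replicate 3 (0.53, limma's adjusted p = 0.0498). The KO difference was 0.19 ± 0.19 and was not called (limma's adjusted p = 0.447).

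**Figure D2:**
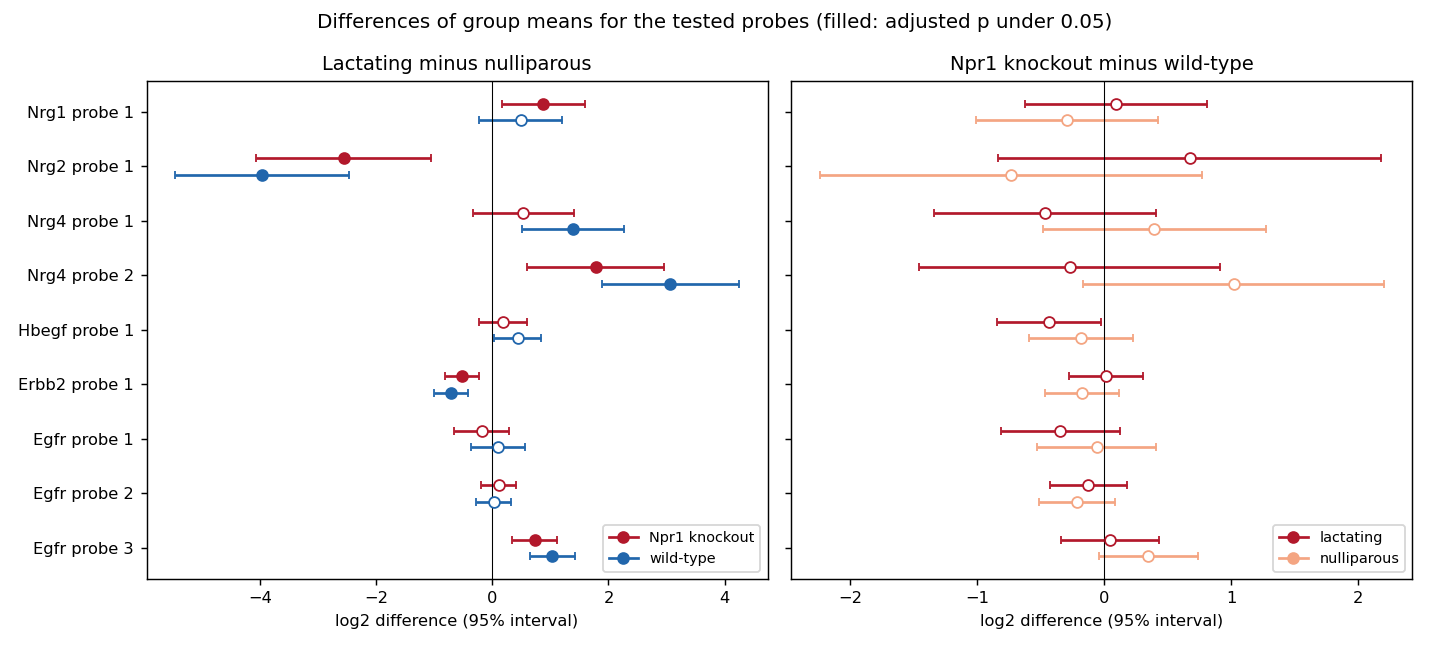
Log2 differences with 95% intervals from limma for each tested probe, lactating minus nulliparous by genotype and Npr1 knockout minus wild-type by state. Filled points passed an adjusted p of 0.05, and the points of Nrg2 and the second Nrg4 probe are fitted values that include arrays below background. Erbb2 lies at -0.52 in KO and -0.71 in WT mice for lactation, and no genotype difference was called.

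Among the receptors, Erbb2, the co-receptor that has no ligand (chromosome 11, probe A_52_P49250, 10 spots per array), fell with lactation in both genotypes. It read -0.64, -0.74, -0.68 and -0.58 in lactating KO and 0.04, 0.11, -0.04 and -0.67 in nulliparous KO ventricles. In WT mice it read -0.80, -0.59, -0.75 and -0.56 in lactating and 0.08, 0.09, -0.07 and 0.03 in nulliparous ventricles. All 4 lactating WT arrays lay below all nulliparous WT arrays, and among the KO arrays nulliparous replicate 4 alone lay with the lactating ones. The group means were -0.66 ± 0.07 in lactating KO and -0.14 ± 0.36 in nulliparous KO, and -0.67 ± 0.12 in lactating WT and 0.03 ± 0.07 in nulliparous WT (SD, n = 4 each). Erbb2 fell by 0.71 ± 0.14 in WT (1.63-fold lower, limma's adjusted p = 0.000888) and by 0.52 ± 0.14 in KO (1.43-fold lower, limma's adjusted p = 0.00778). Without nulliparous KO replicate 4 the KO fall was 0.70 ± 0.08 (limma's adjusted p = 8.07e-06). Within slide 1 the WT and KO differences were -0.78 and -0.76, and within slide 2 they were -0.64 and -0.28. Before scaling, the KO difference had the opposite sign: mean signals were 200.4 in lactating KO (176.8 to 217.0) and 191.3 in nulliparous KO ventricles (160.8 to 221.2), which overlapped. In WT the unscaled means were 181.6 in lactating (164.4 to 189.3) and 211.7 in nulliparous ventricles (208.5 to 216.9).

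Egfr, the receptor of EGF and HB-EGF (chromosome 11), was read by 3 probes that did not move alike. The brightest (A_52_P106259, 10 spots per array), annotated to one RefSeq transcript, read 0.41, 0.27, -0.20 and -0.02 in lactating KO and 0.62, 0.49, 0.28 and -0.20 in nulliparous KO ventricles. In WT mice it read -0.04, 0.90, 0.37 and 0.60 in lactating and -0.03, 0.38, 0.48 and 0.61 in nulliparous ventricles. The groups overlapped, and the difference was -0.19 ± 0.22 in KO (limma's adjusted p = 0.511) and 0.10 ± 0.22 in WT (limma's adjusted p = 0.736). The second probe (A_55_P1956863), annotated to another RefSeq transcript, gave 0.11 ± 0.14 in KO and 0.02 ± 0.14 in WT (limma's adjusted p = 0.543 and 0.905).

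The third Egfr probe (A_55_P1956862), annotated to the same transcript as the second, was above background on 15 of 16 arrays and was higher on lactating arrays. It read -2.27, -2.54, -2.44 and -2.26 in lactating KO and -3.35, -2.83, -3.06 and -3.17 in nulliparous KO ventricles. In WT mice it read -2.26, -2.51, -2.46 and -2.46 in lactating and -3.86, -3.53, -2.81 and -3.61 in nulliparous ventricles. Every lactating array lay above every nulliparous array of its genotype, nulliparous KO replicate 4 included. It rose by 0.73 ± 0.18 in KO (limma's adjusted p = 0.00562) and 1.03 ± 0.18 in WT (limma's adjusted p = 0.000512) in the fit over probes. Normexp left 0.06 in KO (limma's adjusted p = 0.681) and 0.08 in WT (limma's adjusted p = 0.563), ending both calls. That setting also read the median spot signal and added an offset of 50, and which of these steps ended the calls was not tested. Averaging the 3 probes gave a WT difference of 0.38 for the gene (limma's adjusted p = 0.032), which the brightest probe alone did not.

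**Figure D3:**
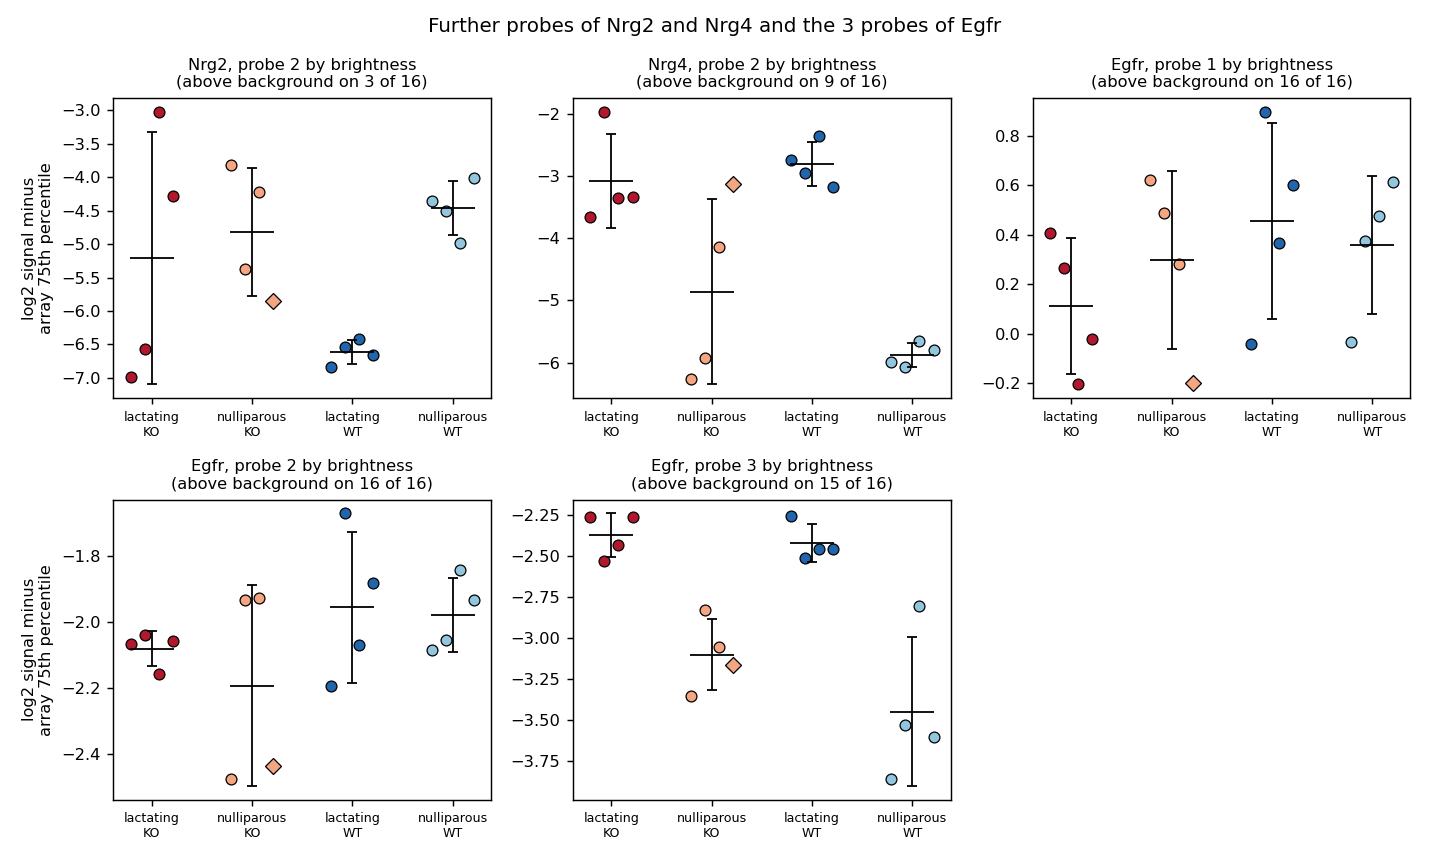
The dimmer probes of Nrg2 and Nrg4 and the 3 probes of Egfr on every array (y axis, log2 signal relative to the 75th percentile of the array), by group, with mean ± SD of 4 arrays and the diamond for nulliparous KO replicate 4. The third Egfr probe separates lactating from nulliparous arrays, and the other two overlap.

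Erbb3 and Erbb4, the receptors that bind neuregulins directly, were near background. Erbb3 (chromosome 10, probe A_55_P2119897) was above background on 1 of 16 arrays and read -5.80 to -4.33 in lactating KO and -5.77 to -4.44 in nulliparous KO, and -5.44 to -4.31 in lactating WT and -5.38 to -4.03 in nulliparous WT ventricles. Erbb4 (chromosome 1, probe A_55_P2119888), the receptor through which neuregulin-1 acts on cardiomyocytes, was above background on 2 of 16 arrays. It read -6.93 to -6.50 in lactating KO and -6.53 to -4.48 in nulliparous KO, and -7.20 to -3.33 in lactating WT and -6.50 to -2.26 in nulliparous WT ventricles. The 2 arrays above background for Erbb4 were lactating WT replicate 2, at -3.33, and nulliparous WT replicate 4, at -2.26. No difference was tested for either gene, and a probe near background sets no limit on the RNA, since where it lies in the transcript is not given in the sources used here.

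Knockout and wild-type mice of the same state were compared for all 6 tested genes, and limma called 0 of 6 in nulliparous mice, where it called 0.0996% of all genes, and 0 of 6 in lactating mice, where it called 0.199%. At an unadjusted p under 0.05, 0 genes differed in nulliparous mice and 1, Hbegf, in lactating mice, by -0.43 ± 0.19 (95% interval -0.84 to -0.03, limma's adjusted p = 0.519). For Erbb2 the 95% intervals of KO minus WT ran from -0.46 to 0.12 in nulliparous mice and from -0.28 to 0.31 in lactating mice, and for Nrg1 from -1.01 to 0.42 and from -0.62 to 0.81. For Nrg4 they ran from -0.48 to 1.27 and from -1.34 to 0.41. Without nulliparous KO replicate 4, KO minus WT in nulliparous mice was 0.006 ± 0.077 for Erbb2, -0.114 ± 0.351 for Nrg1 and 0.215 ± 0.442 for Nrg4. Within slides the KO minus WT difference of Nrg4 in nulliparous mice was -0.63 on slide 1 and 1.42 on slide 2.

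The difference between genotypes in the response to lactation was tested as an interaction, and limma called 0 of 6 genes, where it called 0.0925% of all genes, with 0 of the 6 at an unadjusted p under 0.05. For Nrg2 (limma's adjusted p = 0.853) no size is given, since no lactating WT array was above background. The KO response minus the WT response was -0.86 ± 0.58 for Nrg4 (-2.10 to 0.38, limma's adjusted p = 0.851), 0.39 ± 0.47 for Nrg1 (-0.62 to 1.40, limma's adjusted p = 0.912) and 0.19 ± 0.19 for Erbb2 (-0.23 to 0.60, limma's adjusted p = 0.891). Without nulliparous KO replicate 4 the Erbb2 value was 0.01 ± 0.11. The intervals for Nrg4 and Nrg1 are wide enough to include responses of either direction, so a call in one genotype and not in the other is not a difference between genotypes.

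Other genes of the pathway were read from lists of 75 genes, of which 74 had a probe and 66 were tested. Between lactating and nulliparous mice, limma called 17 higher and 9 lower of 66 in KO (median log2 difference 0.07) and 23 higher and 10 lower of 66 in WT (median 0.10), shares near those of all genes. Without nulliparous KO replicate 4, 29 were called in KO and 35 in WT. Between genotypes 0 of 66 were called in either state, with 5 at an unadjusted p under 0.05 in nulliparous and 4 in lactating mice. Of the other ligands, Nrg3, Tgfa, Areg and Ereg were above background on 0 of 16 arrays and Btc on 4, and Egf and Epgn were tested and not called.

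Of 11 genes that process ligands and receptors, 1 rose and 1 fell in each genotype, where 44.1% of all genes were called in KO and 50.3% in WT. Adam9, a membrane metalloprotease, rose by 0.52 ± 0.11 in KO (limma's adjusted p = 0.00304) and 0.49 ± 0.11 in WT (limma's adjusted p = 0.00319). Timp3, an inhibitor of such proteases, fell by 1.05 ± 0.35 in KO (limma's adjusted p = 0.0255), and was -0.10 ± 0.35 in WT. The KO call for Timp3 ended without nulliparous KO replicate 1 (-0.80) or 2 (-0.95) or lactating KO replicate 2 (-0.92) or 3 (-0.97). Ncstn, a subunit of gamma-secretase, fell by 0.64 ± 0.21 in WT (limma's adjusted p = 0.0222), and was -0.55 ± 0.21 in KO (limma's adjusted p = 0.0506). The WT call for Ncstn ended without nulliparous WT replicate 2 (-0.53) or 4 (-0.59) or lactating WT replicate 3 (-0.52) or 4 (-0.59), and the KO difference was called without nulliparous KO replicate 4 (-0.64).

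Of 35 adaptors and kinases downstream of the receptors, 12 rose and 4 fell in KO, where 25.5% of all genes rose and 18.6% fell, and 16 rose and 5 fell in WT, where 31.8% rose and 18.5% fell. Hras, which encodes a small GTPase, rose by 0.68 ± 0.13 in KO and 0.84 ± 0.13 in WT, though the mean of its probes was 0.23 and 0.11 and was not called. Grb2, which links the receptors to Ras activation, fell by 0.46 ± 0.11 in KO and 0.74 ± 0.11 in WT. The KO call for Grb2 ended with the mean of its probes (-0.10, limma's adjusted p = 0.357) and with median centring (-0.28, limma's adjusted p = 0.0784). Stat5a, a transcription factor that ErbB4 can activate, fell by 0.60 ± 0.13 in KO and 0.85 ± 0.13 in WT.

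Of 18 inhibitors and genes of receptor turnover, 4 rose and 4 fell in KO (44.1% of all genes called) and 6 rose and 4 fell in WT (50.3% of all genes called). Erbin, which binds ErbB2, rose by 0.59 ± 0.14 in KO and 0.75 ± 0.14 in WT by its brightest probe, but by the mean of its probes it was -0.03 in KO and 0.01 in WT. Spred1, an inhibitor of Ras signalling, rose by 0.54 ± 0.13 in KO and 0.57 ± 0.13 in WT, and the mean of its probes, 0.24 and 0.12, was not called. Socs5, a suppressor of receptor signalling, rose by 0.52 ± 0.11 in KO and 0.34 ± 0.11 in WT, where the call ended without nulliparous WT replicate 3 (0.27) or lactating WT replicate 1 (0.29). Hsp90aa1, a chaperone that holds ErbB2 stable, rose by 0.69 ± 0.14 in WT (limma's adjusted p = 0.00139) and was 0.26 ± 0.14 in KO (limma's adjusted p = 0.151).

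**Figure D4:**
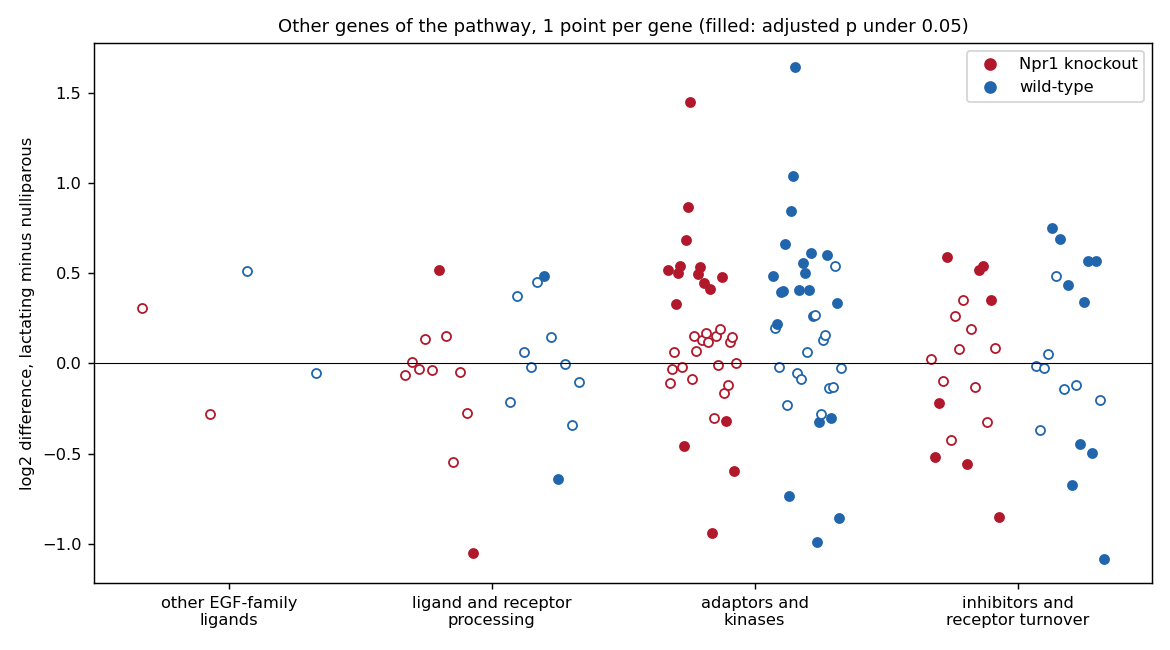
Log2 differences between lactating and nulliparous ventricles for the 66 tested genes of the other pathway lists, by list and genotype. Points are genes, filled where limma's adjusted p was under 0.05. Stat5a lies at -0.60 in KO and -0.85 in WT.

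Cell type markers were read beside these genes, given here as counts called by limma and as the log2 of each list's summed scaled signal. Over all genes tested, 25.5% rose and 18.6% fell with lactation in KO, and 31.8% rose and 18.5% fell in WT. Counts near these shares are no result about a cell type. A sum follows the brightest genes of its list, so it can rise while most of its genes fall. Of 8 cardiomyocyte markers, 1 rose and 6 fell in KO and 2 rose and 3 fell in WT, and the sum was 12.55 to 12.74 in lactating KO and 12.84 to 13.28 in nulliparous KO, against 12.76 to 12.88 in lactating WT and 12.92 to 13.17 in nulliparous WT ventricles. Of 7 macrophage markers, 7 rose in each genotype, and their summed level was 5.56 to 5.82 in lactating KO and 4.29 to 5.27 in nulliparous KO, with replicate 4 at 5.27, against 5.39 to 5.62 in lactating WT and 4.43 to 4.68 in nulliparous WT ventricles. Of 7 tested Schwann and glial markers, 3 fell in each genotype, and their sum was 5.93 to 7.14 in lactating KO and 6.76 to 8.82 in nulliparous KO, against 6.42 to 6.68 in lactating WT and 8.10 to 8.26 in nulliparous WT ventricles. Of these markers, Foxd3 was above background on no array in lactating KO ventricles. Of 3 tested mesothelial markers, 2 rose in KO and 3 in WT, and the sum of the 8 listed was 2.00 to 2.21 in lactating KO and 1.16 to 1.73 in nulliparous KO, against 1.64 to 2.88 in lactating WT and -1.91 to 0.99 in nulliparous WT ventricles, with Epcam and Cdh1 above background on no array. In nulliparous WT ventricles 7 of the 8, Msln and Krt19 among them, were above background on no array. A rise of Msln and Krt19 in WT was therefore built into their being tested. The nulliparous WT sum includes the signal below background of those 7. In nulliparous KO ventricles 1 of the 8 was above background on all arrays, against 3 in each lactating group. For markers that passed only through lactating groups, the filter favoured a higher lactating level in KO too. Of 6 tested adipocyte markers, 0 rose and 4 fell with lactation in KO, and 2 rose, Retn and Adipoq, and 1 fell in WT. Of the same 6, 5 were lower in lactating KO than in lactating WT mice (0.199% of all genes called). In nulliparous mice 2 were lower in KO than in WT (0.0996% of all genes called). Of the 8 listed, 6 were above background on all arrays of each WT group and 2 on all arrays of each KO group. Cidec was on no lactating KO array above background. For markers that passed the filter only through WT groups, a lower KO level was built into their being tested. Lep and Ucp1 were on no array above background. The sum of the 8 listed was 4.81 to 5.02 in lactating KO and 5.07 to 5.47 in nulliparous KO, against 4.76 to 5.29 in lactating WT and 5.14 to 5.41 in nulliparous WT ventricles. Of 4 atrial cardiomyocyte markers, 1 rose, Nppa, and 3 fell in KO and 1 rose, Nppa, and 2 fell in WT. Myl7, an atrial myosin light chain, was by the fit 9.9-fold lower in lactating KO and 7.74-fold lower in lactating WT ventricles. All 4 were above background on all arrays in nulliparous WT, 3 in nulliparous KO and 2 in each lactating group. For markers that passed the filter only through nulliparous groups, a lower lactating level was built into their being tested. A fold that includes signal below background is not a measured size. The sum of the 4 atrial markers was 8.90 to 10.15 in lactating KO and 7.80 to 9.49 in nulliparous KO, with replicate 4 at 7.80, against 8.67 to 9.57 in lactating WT and 7.63 to 8.49 in nulliparous WT ventricles. Of 7 fibroblast markers, 5 rose and 0 fell in KO and 4 rose and 1 fell in WT, and their sum was 8.09 to 8.38 in lactating KO and 8.18 to 8.38 in nulliparous KO, against 8.09 to 8.27 in lactating WT and 8.20 to 8.44 in nulliparous WT ventricles. Of 9 endothelial markers, 3 rose and 1 fell in KO and 2 rose and 0 fell in WT, and their sum was 7.02 to 7.19 in lactating KO and 7.06 to 7.39 in nulliparous KO, against 6.90 to 7.20 in lactating WT and 7.14 to 7.20 in nulliparous WT ventricles. Of 7 mural cell markers, 1 rose and 1 fell in KO and 1 rose and 2 fell in WT, and their sum was 6.54 to 6.96 in lactating KO and 6.86 to 7.33 in nulliparous KO, against 6.63 to 7.15 in lactating WT and 6.76 to 7.20 in nulliparous WT ventricles. The part of these cell types in the values of the neuregulin and ErbB genes was not tested.

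The genes most like each called member were found by the root mean square difference of levels over 16 arrays, each gene centred on its own mean. Erbb2, which varied by 0.36 around its mean, was nearest to Tcf20 (0.07) and Trip4 (0.08). Nrg4, which varied by 0.76, was nearest to Colq and Iqcc (0.38 each), and Nrg1, which varied by 0.57, to Foxi1 (0.30) and Gpr45 (0.32). Nrg2, which varied by 1.92, was nearest to Rhox3a (0.90) and Zfhx2 (0.93).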

How the data were processed

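Total RNA (200 ng per mouse, per the labels' protocols) from ventricles of 16 mice was hybridised to one-colour Agilent arrays, which the authors read with Agilent Feature Extraction (version 10.7.3.1), per the submitters' processing notes and the file headers. Per the file headers, the deposited scanner values are intensity on a linear scale, with background subtracted inside each array and no scaling across arrays. A second table deposited by the authors holds log2 values. Each of its columns correlated at r = 1 with the scanner values after the 75th percentile and the nulliparous WT mean had been subtracted (24442 probes), so scale, centring and direction are known. Its column medians ran from -0.382 to 0.0318, and it served as an alternative.

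Here, log2 of the processed signal was taken, control spots and outlier values were left out, spots of a probe were averaged and the 75th percentile of the non-control probes was subtracted from each array. Probes were named through a RefSeq table of assembly GRCm38.p6 (27793 of 28167 NM and NR probes matched), and the array headers name mm9, so no coordinates are given for probes. The brightest probe stood for a gene. Genes not well above background on all 4 arrays of any group were left out (7094), which left 14060. No probe was saturated. Group means were fitted with limma 3.58.1 in R 4.3.3 by lmFit and eBayes, with 12 residual degrees of freedom, over genes and separately over probes, and tested on simulated data. Depth does not apply to arrays, and the number of arrays limits the precision. Figures were drawn with matplotlib 3.10.9.

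The genes, lists and motifs were chosen with earlier results of these data known. Every member was named, with up to 4 called genes of smallest adjusted p per pathway list and the 2 nearest genes of each called member; a few of the genes this takes are not reported here. Deviations of same-numbered arrays correlated at -0.139 to 0.176, and 8 arrays correlated best with their own number. That count compared each array's mean correlation across the replicate numbers, but how many would be best by chance was not tested. Replicate numbers also went with slides. These values do not settle whether replicate numbers pair the mice. The main fit treated the mice as unpaired. Alternatives were normexp (offset 50), quantile normalization, median centring, 2 other filters, the mean of a gene's probes, other variance models, array weights, replicate and slide blocks, single slides, only the groups compared, the deposited log2 table and each array left out in turn. Those for the other pathway genes were added after seeing the data.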

Additional observations from a re-analysis of the deposited data

Results flagged for a closer look

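Among 48 checks of 4 arrays each, 3 arrays lay farther from the nearest of their group than Dixon's 95% critical value allows, and chance alone flags about 1 in 20 groups. Nrg2 (brighter probe) read -2.448 in lactating KO replicate 2, with the other lactating KO arrays at -6.61 to -6.09 (gap 0.875 of the range). Nrg4 (brighter probe) read -0.835 in lactating WT replicate 3, with the others at -1.39 to -1.35 (gap 0.938 of the range). Erbb4 read -3.331 in lactating WT replicate 2, with the others at -7.20 to -6.59 (gap 0.843 of the range).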

How the results depend on the processing

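Over the alternatives, Erbb2 and Nrg2 kept a lower level and Nrg4 a higher level with lactation in WT mice, Erbb2 from -0.78 to -0.52, and the calls of Erbb2 and Nrg4 ended only within a single slide (2 arrays per group). The counts of genes called for lactation were 7071 in WT (63.2% higher) and 6204 in KO (57.9% higher). Median centring made 80.3% and 79.2% of calls higher by moving the median of all genes to 0.28 and 0.24, and with no filter 45.9% of the WT calls were higher. The cause of the changes below was not tested.

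KO against WT in nulliparous mice (14 genes) gave 7 with normexp, 6 with no filter, 5 with the filter on all 16 arrays, 256 with array weights and 6 within slide 1. KO against WT in lactating mice (28 genes) gave 44 with normexp, 17 with no filter, 18 with the filter on all 16 arrays, 211 with array weights, 16 within slide 1 and 4 within slide 2. The interaction (13 genes) gave 6 with the filter on all 16 arrays, 77 with array weights, 6 within slide 1 and 1 within slide 2. The replicate block gave 9 genes for KO against WT in nulliparous mice, against 14 without it, and changed no call of the neuregulin and ErbB genes; 8 of 16 arrays correlated best with their own number.

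Within slide 2, limma called 86 genes for lactation in WT, with 1 of the 6 neuregulin and ErbB genes and 2 of their probes, and 0 genes in KO, with 0 of the 6 and 0 of their probes. At an unadjusted p under 0.05 limma found 2058 genes there in KO, 1 of the 6 and 2 of the probes. Fitting only the groups compared called 1 of the 6 genes and 2 of their probes in KO, and normexp 3 of their probes. The mean of its probes turned Erbin in KO to -0.034.

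Leaving out each array in turn gave 6234 to 7500 genes for lactation in WT and 4802 to 7494 in KO, 7 to 20 for KO against WT in nulliparous and 13 to 48 in lactating mice, and 10 to 20 for the interaction. Of the 6 genes it left 3 to 4 called in WT and 2 to 3 in KO, and of their probes 5 to 6 and 3 to 5. Of the other pathway genes it left 27 to 35 called in WT and 17 to 29 in KO, the lowest without nulliparous KO replicate 2. Signal near background limits what can be read from Erbb3, Erbb4 and the dimmer probes of Nrg2, Nrg4 and Egfr.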
